A study of Mus musculus with 32 samples.

Results

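Ciliated ependymocytes of the mouse median eminence (ME) were taken from a single-cell RNA-sequencing study of this tissue, as the cells with at least 5 unique molecular identifiers (UMIs, each marking 1 captured RNA molecule) of Ccdc153 and Tmem212 summed. This rule chose 247 of the 5982 cells, a share of 4.13% with an exact Clopper-Pearson 95% interval of 3.64 to 4.66%. C57B/L6 mice aged 40 to 47 days were all fasted overnight for 16 h, and 5 of them were killed fasted while the other 5 first had 1 h of access to normal chow. The ME of the mice of each condition was pooled and dissociated in papain, DraQ5-positive and DAPI-negative cells were sorted, and each pool was split over 2 libraries of the 10x 3′ kit. No mice fed without restriction were included in this experiment. The matrix holds the cells of all libraries, and the suffix of a barcode, one of the numbers 1 to 4, is tied by no label to a library or a condition. All values are therefore for fasted and refed mice together, refeeding cannot be assessed, and the 4 barcode numbers are given side by side and not compared as groups.

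Ependymocytes are the epithelial glia that line the cerebral ventricles. Their apical surface carries tufts of motile cilia whose beat moves cerebrospinal fluid. At the floor of the third ventricle, where the ME lies, this lining gives way to tanycytes, elongated glia that reach from the ventricle into the hypothalamus. A motile cilium is built on an axoneme of doublet microtubules, to which dynein arms, radial spokes, nexin links and proteins inside the tubules are attached, and it is assembled by intraflagellar transport. The transcription factor FOXJ1 and factors of the RFX family switch on the genes of this programme.

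The median depth of the chosen cells was 4862 UMIs per cell, with a range of 2215 to 15410, and 2359 genes, beside 3752 UMIs and 1815 genes in the 5735 other cells. Mitochondrial genes held a median of 4.47% of their UMIs and 4.04% of those of other cells. Together the ependymocytes held 1245612 UMIs, so that 3 UMIs, the limit a count of 0 allows, correspond to 2.41 CPM (UMIs of a gene per 1000000 UMIs of its group), and 3 cells to 1.21% of the cells. Of the barcodes of all cells, 21 occurred under more than 1 number, in 42 cells, and 0 of these were chosen. Levels are the UMIs of a gene summed over a group of cells and scaled to CPM. Their 95% intervals, exact Poisson for CPM and exact Clopper-Pearson for shares of cells, cover counting error only.

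The chosen cells fell mainly into 1 of the 24 clusters of all cells. Of the 247 cells, 199 lay in a cluster of 200 cells, here the ependymocyte-like cluster, in which all 5 ependymal markers (Ccdc153, Tmem212, Rarres2, Foxj1 and Hdc) were at least 4 times as high as in the median cluster. A further 44 lay in a cluster of 366 cells, here called Gfap-led after Gfap, an intermediate filament gene of astrocytes and radial glia. In it, 7 of 10 tanycyte markers and 3 of 8 astrocyte markers were raised by the same measure. This cluster scored highest for tanycyte markers, but was kept apart from the tanycyte-like cells used for comparison. The last 4 lay in tanycyte-like clusters. Ccdc153 and Tmem212 are the genes of the rule and were bound to be high there, so that only Rarres2, Foxj1 and Hdc bear on the name. The 44 cells of the Gfap-led cluster are also described apart. Because the cells were chosen on their own UMIs and clustered on the same matrix, every level given here is a description and carries no test.

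**Figure D1:**
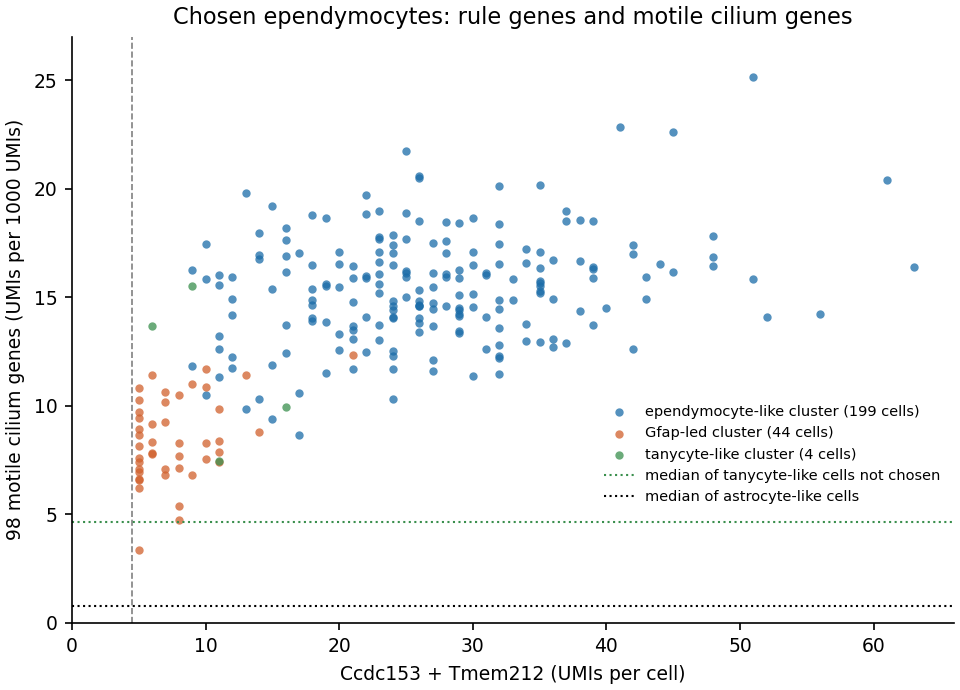
Each point is 1 of the 247 chosen cells, placed by its UMIs of the 2 rule genes (x axis, UMIs per cell) and its UMIs of 98 motile cilium genes per 1000 UMIs (y axis), and coloured by cluster. The dashed line marks the minimum of 5 UMIs, the dotted lines the medians of tanycyte-like cells that were not chosen (4.67) and of astrocyte-like cells (0.771). The 44 cells of the Gfap-led cluster gather near the threshold, between 3.37 and 12.4 on the y axis, and the 199 cells of the ependymocyte-like cluster lie between 8.64 and 25.2.

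The rule genes themselves varied widely over the chosen cells. Ccdc153 (chr9:44240676-44247306 in GRCm38, plus strand), which encodes a coiled-coil protein, had a median of 11 UMIs per cell, a maximum of 34 and no UMI in 16 cells. Tmem212 (chr3:27866066-27896368, minus strand), a transmembrane protein gene, also had a median of 11, with a maximum of 36 and no UMI in 1 cell. Summed, they reached 13.5, 24 and 31 UMIs at the quartiles and 63 at most. Most chosen cells thus had both genes, and lay well above the threshold. Just inside the rule, 21 cells had 5 or 6 UMIs, 20 of them in the Gfap-led cluster and 1 in a tanycyte-like one. All 21 together held 2099 CPM of Rarres2, 78.5 of Foxj1, 58.9 of Hdc and 1256 of Gfap. Just outside it, 30 cells had 3 or 4 UMIs, 21 of them in the Gfap-led cluster and 7 in tanycyte-like ones. All 30 together held 1540 CPM of Rarres2, 113 of Foxj1, 80.0 of Hdc and 747 of Gfap. The edge of the rule therefore ran mainly through the Gfap-led cluster, with some tanycyte-like cells, and left out 1 cell of the ependymocyte-like cluster.

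The other 3 markers were high in the chosen cells. Rarres2 (chr6:48569696-48572789, minus strand), which encodes the secreted chemoattractant and adipokine chemerin, stood at 3508 CPM (3405 to 3614) in ependymocytes, 312 in tanycyte-like, 339 in astrocyte-like and 198 in all other cells. It was detected in all 247 chosen cells. Foxj1 (chr11:116330704-116335399, minus strand), the regulator of motile ciliogenesis, stood at 303 CPM (273 to 335), beside 52.6 in tanycyte-like and 10.9 in astrocyte-like cells. Hdc (chr2:126593667-126619299, minus strand), whose product histidine decarboxylase makes histamine, stood at 469 CPM (432 to 508), beside 13.2 and 4.32. All 3 genes were several times above their level in either of these glial types. The Gfap-led cells that were not chosen were closer for Rarres2. There, Rarres2 and its 3 receptor genes summed to 1159 CPM, beside 3509 in ependymocytes.

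Shares of cells with a UMI depend on depth, so each cell was also thinned to 1000 UMIs. Hdc was seen in 78.5% of the chosen cells (72.9 to 83.5%) and in 35.2% after thinning, against 1.12% and 0.632% of astrocyte-like cells, whose median depth was 2665 UMIs. Foxj1 was seen in 74.9% (69.0 to 80.2%) and in 24.3% after thinning, against 2.95% and 1.41% of astrocyte-like cells. Neither share in ependymocytes was near that of astrocyte-like cells, while shares in tanycyte-like and Gfap-led cells are not given here. In Gfap-led cells that were not chosen, the 15 genes of histamine and monoamine handling summed to 93.2 CPM, beside 548 in ependymocytes. The 18 ciliogenesis regulators, Foxj1 among them, summed to 321 CPM there, beside 686 in ependymocytes. Of the other genes of histamine and monoamine handling, Slc18a2, the vesicular monoamine transporter that loads histamine into vesicles, had 1 UMI over all chosen cells, and Slc18a1 had 0. Hnmt, the enzyme that inactivates histamine, stood at 19.3 CPM in ependymocytes and 50.6 in other cells. Of the 3 chemerin receptor genes, Cmklr1 had 1 UMI and Ccrl2 and Gpr1 had 0. All of these but Hnmt were at or under the limit that a count of 0 allows in the chosen cells.

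Elof1, a transcription elongation factor gene, and Cd9, a tetraspanin gene, are named in the study as genes of clusters, Elof1 for ependymocytes and Cd9 for oligodendrocyte precursors. Elof1 stood at 1081 CPM (1024 to 1140) in ependymocytes and 268 in tanycyte-like cells. Cd9 was detected in every chosen cell, at 1727 CPM (1655 to 1801) beside 1133 in tanycyte-like, 595 in astrocyte-like and 1169 in all other cells.

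Across all genes, 13953 had at least 50 UMIs over the chosen and the other cells, and were compared as log2 of (CPM + 10) in ependymocytes over other cells, a scale that understates differences of low genes. Of these, 1113 or 7.98% were higher in ependymocytes by at least 1 log2 unit and 1338 or 9.59% were lower, with a median of -0.16 over all of them. Against the tanycyte-like cells, 9936 genes were compared, of which 846 or 8.51% were higher and 401 or 4.04% lower, with a median of -0.10. These shares are the background for the gene lists below. The sign of 1110 of the 1113 higher genes and 1334 of the 1338 lower ones was the same in all 4 barcode numbers. Against the tanycyte-like cells it was the same for 842 of 846 and 400 of 401.

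Genes of the motile axoneme were higher in the chosen cells than in other cells almost throughout. Of 98 genes in 5 lists (dynein arms, dynein arm assembly, radial spokes and central pair, doublet ruler and nexin link, microtubule inner proteins), 88 passed the filter against other cells, and 82 of them were at least 1 log2 unit higher, 0 lower, with a median of 2.23. Against tanycyte-like cells, 85 passed and 60 were higher, 0 lower, with a median of 1.26, where the background was 8.51%. The 10 genes that did not pass against other cells were low: 4 had no UMI in ependymocytes and the rest 7 to 33. In single cells, these 98 genes held a median of 14.6 UMIs per 1000 (3.37 to 25.2), and no chosen cell lacked them. The medians were 14.9, 14.97, 14.8 and 14.1 in barcode numbers 1 to 4, so that these medians lay within 1 UMI per 1000 of each other. Tanycyte-like cells were at 4.67, astrocyte-like cells at 0.771 and cells of the Gfap-led cluster that were not chosen at 5.27.

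Dynein arms are the motors that bend the axoneme. Of 21 dynein arm genes compared with tanycyte-like cells, 14 were higher, with a median of 1.39. Dnali1, an inner arm light intermediate chain, stood at 260 CPM (233 to 290) beside 63.5 in tanycyte-like cells. The inner arm heavy chains Dnah12 and Dnah6 stood at 182 (159 to 208) and 149 (128 to 172) beside 18.4 and 22.4. Wdr78 stood at 120 beside 60.6, within 1 log2 unit. The heavy chains thus differed more than Wdr78 among the most abundant genes of the list. The outer arm heavy chains Dnah9 and Dnah5 stood at 100 and 98.7 CPM beside 16.5 and 4.97, whereas Dnal4, a light chain, was at 60.2 beside 61.2. Dnah3 had 33 UMIs in the chosen cells and none in tanycyte-like cells, and Dnah8 and Dnah17 had none in ependymocytes. Dnah5, Dnah9, Dnah3 and Dnal4 were chosen for mention after their values were seen. Dnah7a and Dnah7b are near-identical, and their counts of 61 and 37 UMIs could have been split between them.

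Of the 15 assembly factor genes, 7 were higher than in tanycyte-like cells, with a median of 0.84. These cytoplasmic chaperones fold and preassemble the arms before transport. Zmynd10 stood at 142 CPM beside 28.1, the chaperone ATPase genes Ruvbl2 and Ruvbl1 at 179 and 153 beside 62.6 and 87.4, and Cfap298 at 264 beside 194. Of these, Zmynd10 and Ruvbl2 passed 1 log2 unit. Radial spokes, which pass signals from the central pair to the dyneins, had the highest median of the 5 lists, 1.66, with 15 of 20 genes higher. Rsph1, a spoke head gene, stood at 1065 CPM (1008 to 1123) beside 182, and was seen in 97.2% of chosen cells and 47.9% of tanycyte-like ones. Nme5 was at 439 beside 233, Rsph9 at 321 beside 208, and Cfap20 at 318 beside 149. The central pair genes Hydin, at 120 CPM beside 11.1, and Spag17, at 108 beside 4.40, differed by 2.63 and 3.03 log2 units, and were chosen for mention after their values were seen. Rsph6a, known from sperm, had no UMI in the chosen cells.

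Of the doublet ruler and nexin link genes, which fix the spacing along the axoneme, 7 of 10 were higher, with a median of 1.14. Drc3 stood at 263 CPM beside 57.2, Iqca at 165 beside 36.3, Drc1 at 151 beside 65.6 and Iqcg at 150 beside 69.8. Microtubule inner proteins, which stabilise the doublets from within, had the largest share of higher genes of the 5 lists, 18 of 20, with a median of 1.20. Cfap126 stood at 1081 CPM beside 504, Meig1 at 848 beside 151, 1700007K13Rik at 466 beside 104 and Fam166b at 399 beside 119. Stmnd1, chosen after its value was seen, stood at 106 CPM beside 1.15 and had the largest log2 difference of this list, 3.38. The inner protein genes named before it were also well detected in tanycyte-like cells, at a lower level.

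Genes shared with primary cilia separated the cells less. Of 31 genes of intraflagellar transport, the traffic along the axoneme that all cilia use, 7 were higher than in tanycyte-like cells, or 21 of 32 against other cells, with medians of 0.58 and 1.29. Dynlrb2, a dynein light chain of this traffic, stood apart at 1576 CPM (1507 to 1647) beside 486 in tanycyte-like cells. Ift22 stood at 423 beside 217, Ift43 at 285 beside 198 and Ift20 at 281 beside 184, all within 1 log2 unit. Of the genes of the BBSome, the membrane cargo coat of cilia, and of its partners, 0 of 11 were higher or lower than in tanycyte-like cells, with a median of 0.36. The order of the list medians against tanycyte-like cells was radial spokes, dynein arms, microtubule inner proteins, nexin links, assembly factors, intraflagellar transport and BBSome.

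**Figure D2:**
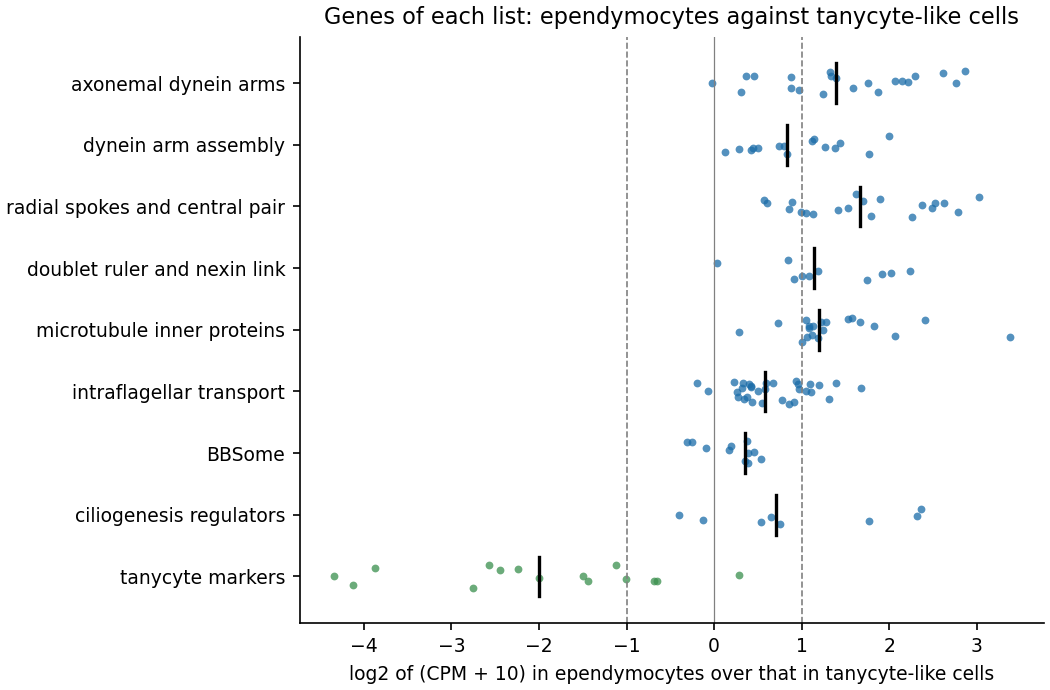
Each point is 1 gene, placed by the log2 of (CPM + 10) in ependymocytes over that in tanycyte-like cells, for 7 lists of cilium genes and 1 of regulators (blue) and the tanycyte marker list (green). Black bars are list medians and dashed lines mark 1 log2 unit either way. Medians run from 1.66 for radial spokes down to 0.36 for the BBSome, and the tanycyte markers have a median of -1.996.

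Of 18 regulators of multiciliogenesis, 8 were compared with tanycyte-like cells and Foxj1, Myb and Rfx4 were higher, with a median of 0.70 over the list. Myb, a factor of multiciliated cell differentiation, stood at 52.2 CPM in ependymocytes, 2.10 in tanycyte-like and 0.785 in all other cells. Rfx4 stood at 77.1 beside 15.5 in tanycyte-like cells but 144 in astrocyte-like cells. Rfx3 stood at 76.3 beside 49.4 and Rfx2 at 43.4 beside 23.9, both within 1 log2 unit. Trp73, whose product acts in the multiciliated fate, had 26 UMIs in ependymocytes and none in tanycyte-like cells. Mcidas and Gmnc, inducers at the top of the cascade, had 1 and 2 UMIs, and Foxn4 had 0. RNA of Foxj1 and Myb was thus present with almost none of these inducers. Rfx2, Trp73, Mcidas and Gmnc were chosen for mention after their values were seen.

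Promoter sequence was examined because the RFX factors bind a known motif, which the rule did not use. Promoters were taken from RefSeq as 250 bases before to 50 bases after each transcript start in GRCm38.p6, for 79 of the 101 listed motile cilium genes. The RFX half-site GTTGCC, searched on both strands, occurred in 34 of the 79, or 43.0% (31.9 to 54.7%), and in 14.1% of the 27025 genes in the table. Paired sites, GTTGCC or GTTNCC followed after 0 to 3 bases by GGNAAC, which can contain the half-site, occurred in 5 of 79, or 6.33%, beside 0.936% of all genes. The forkhead core GTAAACA occurred in 4 of 79, or 5.06%, beside 4.05%. The interval of the half-site thus lay above its share in all promoters, while the interval of the forkhead core, 1.40 to 12.5%, included its background. The 41 half-sites before the start lay at a median distance of 60 bases from it. They were counted for each transcript start, so that 1 site can recur in a gene with several starts. Of the marker genes of other cell types, 0 of 11 for tanycytes, 1 of 12 for astrocytes, 2 of 7 for mature oligodendrocytes, 2 of 8 for neurons and 1 of 7 for microglia and macrophages held a half-site. A match is a description of letters and not a bound site.

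**Figure D3:**
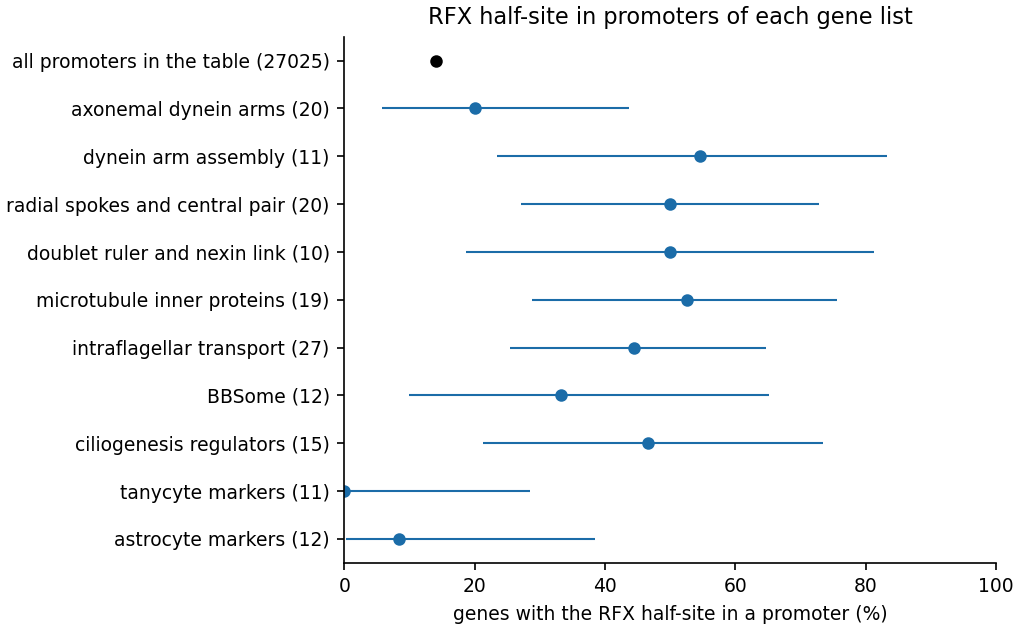
Points give the percent of genes in each list with the RFX half-site in a promoter, with exact Clopper-Pearson 95% intervals, and the number of genes with a promoter in brackets. All promoters stand at 14.1%, the assembly, radial spoke, nexin link and inner protein lists between 50 and 54.5%, the dynein arms at 20% and the tanycyte markers at 0%.

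Promoters of 7 marker and cilium genes are shown as examples because each held an RFX half-site within the 160 bases before the start of transcription, with the motifs in capitals (GRCm38.p6, from RefSeq). They were chosen after the search, and the letters run 5′ to 3′ on the strand of the gene.
Ccdc153 (chr9:44240517-44240676, plus strand): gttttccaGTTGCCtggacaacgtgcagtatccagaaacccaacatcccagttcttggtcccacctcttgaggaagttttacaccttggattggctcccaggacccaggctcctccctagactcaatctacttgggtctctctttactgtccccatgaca
Fam183b (chr11:58801961-58802120, minus strand): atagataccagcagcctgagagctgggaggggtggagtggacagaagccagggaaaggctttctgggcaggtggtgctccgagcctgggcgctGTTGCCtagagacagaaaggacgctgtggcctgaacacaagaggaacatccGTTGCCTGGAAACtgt
1110017D15Rik (chr4:41507765-41507924, minus strand): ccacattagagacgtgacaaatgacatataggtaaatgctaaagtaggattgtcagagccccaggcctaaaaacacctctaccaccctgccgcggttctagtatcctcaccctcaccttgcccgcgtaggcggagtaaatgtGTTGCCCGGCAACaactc
Mlf1 (chr3:67373937-67374096, plus strand): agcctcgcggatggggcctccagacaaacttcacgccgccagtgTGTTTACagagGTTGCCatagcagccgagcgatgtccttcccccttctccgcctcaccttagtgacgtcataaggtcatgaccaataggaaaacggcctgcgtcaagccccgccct
Sntn (chr14:13670716-13670875, plus strand): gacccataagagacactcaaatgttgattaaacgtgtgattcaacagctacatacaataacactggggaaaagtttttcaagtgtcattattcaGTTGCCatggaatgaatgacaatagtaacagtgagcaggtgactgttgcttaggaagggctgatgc
Dynlrb2 (chr8:116504855-116505014, plus strand): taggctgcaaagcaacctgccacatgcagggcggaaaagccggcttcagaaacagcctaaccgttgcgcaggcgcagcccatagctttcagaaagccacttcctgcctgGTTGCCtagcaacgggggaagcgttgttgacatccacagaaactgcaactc
Tekt1 (chr11:72361883-72362042, minus strand): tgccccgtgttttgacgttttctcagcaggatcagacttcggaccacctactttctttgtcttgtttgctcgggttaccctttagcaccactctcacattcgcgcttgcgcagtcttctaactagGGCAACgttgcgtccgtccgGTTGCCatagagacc
The capitals mark the RFX half-site or its reverse complement, the paired site, and in Mlf1 also the forkhead core. In Ccdc153 the half-site lay 152 bases before the start, the farthest of the 7. Fam183b and 1110017D15Rik held paired sites, in 1110017D15Rik within 18 bases of the start. Mlf1 held a forkhead core beside its half-site, on the opposite strand. Tekt1 held half-sites on both strands. Among the cells these genes stood at 1123 CPM for Fam183b, 1204 for 1110017D15Rik, 503 for Mlf1, 289 for Sntn, 1576 for Dynlrb2 and 327 for Tekt1.

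The rankings against all other cells and against tanycyte-like cells left out the rule genes, which were higher still, and genes without a symbol. Against all other cells, the 15 highest were then Tctex1d4, Gm21149, Gm10714, 1700001C02Rik, Sntn, Hdc, 1110017D15Rik, Tm4sf1, Cd24a, Cdhr4, Ascc1, Nuf2, Ccdc33, Stoml3 and Odf3b, at 4.49 to 5.12 log2 units. Tctex1d4, of the Tctex family of dynein light chains, stood at 413 CPM in ependymocytes beside 2.18 in other cells. Sntn, which encodes sentan, a protein of the ciliary tip, stood at 289 CPM (260 to 320) beside 0.571. Nuf2, which encodes a kinetochore protein, stood at 340 CPM beside 5.24, while of 15 genes of cell division 5 had no UMI and 0 of 10 compared was higher than in other cells. Gm10714 is annotated as an antisense gene on chromosome 2. Tm4sf1 and Cd24a, which encode surface proteins, stood at 1024 and 848 CPM beside 32.7 and 25.9. None of the 15 genes was above 39.2 CPM in all other cells.

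Against tanycyte-like cells, Cd24a, Tm4sf1, Pcp4l1, Tctex1d4, Gm21149, Sntn, S100b, Ccdc33, Gm10714 and Calb1 were the 10 highest. S100b and Calb1, calcium-binding protein genes, stood at 1023 and 416 CPM in ependymocytes beside 30.4 and 7.84 in tanycyte-like cells. Pcp4l1 stood at 519 beside 4.40. The 10 lowest were Rax, Col25a1, Gpc3, Crym, Ptn, 6330403K07Rik, Cldn10, Thrsp, Deptor and Kctd14. Rax, a homeobox gene of tanycytes, stood at 27.3 CPM in ependymocytes beside 748, and Crym, whose product binds thyroid hormone, at 31.3 beside 595. Of 15 tanycyte marker genes, 12 were at least 1 log2 unit lower and 0 higher, with a median of -1.996. Their summed level was 637 CPM in ependymocytes and 3378 in tanycyte-like cells, and none was at 0. Against all other cells, Dcn, Gatm, Mal, Cd74, Cldn11, Ptgds, Snhg11, Ermn and Scg2 were among the lowest, with Mal of oligodendrocytes, Dcn of fibroblasts, Cd74 of macrophages and Scg2 of neurons.

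Of 20 genes of lipids and secreted proteins compared with tanycyte-like cells, 9 were higher and 1 lower, with a median of 0.71. Dbi, which encodes the acyl-CoA binding protein also called diazepam-binding inhibitor, stood at 25025 CPM (24748 to 25304) in ependymocytes beside 3943 in tanycyte-like and 4809 in astrocyte-like cells, and only Malat1 had more UMIs in the chosen cells. Clu, a secreted chaperone gene, stood at 3842 beside 368. Apoe, the lipid carrier, was at 18243 beside 21911, and Cst3, a secreted protease inhibitor gene, at 7460 beside 26962. Dbi and Clu were thus above, and Cst3 below, the level in tanycyte-like cells. Of 18 metallothionein and redox genes 4 were higher and 1 lower, with a median of 0.40. Mt1 and Mt3, which encode metal-binding proteins, stood at 9460 and 9044 CPM beside 5967 and 2895, Mt2 at 2473 beside 2224, and Prdx6, a peroxiredoxin gene, at 2205 beside 5150.

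Some transport genes were higher and some lower than in tanycyte-like cells, where the background was 8.51% higher and 4.04% lower. Of 13 genes of water, ion and solute handling, 5 were higher and 2 lower, with a median of 0.06. Aqp4, the water channel of glia, stood at 425 CPM (390 to 463) beside 26.6 in tanycyte-like and 468 in astrocyte-like cells. Kcnj10, a potassium channel gene, stood at 155 beside 40.2, and Atp1b2, a sodium pump subunit gene, at 301 beside 326. Aqp4 was thus near the astrocyte level, and Atp1b2 near that of tanycytes. Of 18 genes of nutrient transport 2 were higher, near the background share, and 3 lower. Slc2a1, the glucose transporter of barrier cells, stood at 508 (469 to 549) beside 86.8, Slc38a1, a glutamine transporter gene, at 474 beside 270, and Slc1a3, a glutamate transporter gene, at 389 beside 719. Of 12 hormone receptor genes 1 was higher, also near the background share, and 2 lower. Igf1r was the higher one, at 96.3 beside 31.4, Ramp1, a receptor accessory protein gene, was at 900 beside 471 and Thra, a thyroid hormone receptor gene, at 381 beside 386. Lepr, Ghsr, Glp1r and Calcr had no UMI, which allows up to 2.41 CPM.

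Of 19 tubulin and tubulin modifier genes, 6 were higher and 1 lower than in tanycyte-like cells, among them Tubb4b at 1195 CPM beside 325 and Tuba1a at 3495 beside 1624. Tuba1a, Tuba1b and Tuba1c are near-identical, so that their counts are uncertain. Of 18 planar polarity and basal body genes, 5 were higher and 1 lower. Cetn4, a centrin gene, stood at 395 beside 88.4 and Cetn2 at 576 beside 296. Of 17 junction genes 2 were higher, near the background of 8.51%, and 2 lower. Ezr, which links the membrane to actin, stood at 442 beside 203. Of 19 radial glia and stem cell genes 2 were higher, Cd24a and Gfap, also near that background, and 2 lower. Gfap stood at 1228 CPM in the 44 chosen cells of the Gfap-led cluster and at 44.7 in the 199 of the ependymocyte-like cluster. Among the 44 it was uneven, from 0 UMIs in several cells to 26 at most. Six3 and Nkx2-1, homeobox genes of the hypothalamus, stood at 146 and 114 CPM beside 200 and 180, and Hoxa5 and En1 had no UMI.

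Markers of other cell types were examined for the whole lists. Of 9 mature oligodendrocyte genes, 0 were higher and 0 lower than in tanycyte-like cells, and their sum was 856 CPM beside 747 there. Of 10 neuron genes, 4 were compared with tanycyte-like cells, and 0 were higher and 1 lower. The list summed to 553 CPM, of which Meg3 held 444, beside 2603 in tanycyte-like cells. Of 12 astrocyte genes 3 were higher than in tanycyte-like cells (Gja1, Slc4a4 and Htra1), with a sum of 2983 CPM against 21136 in astrocyte-like cells. Of 10 choroid plexus genes, 6 were compared with all other cells, and 3 were higher and 1 lower, where 7.98% of all genes were higher. Against tanycyte-like cells 3 were compared, and 2 were higher and 0 lower, where the background was 8.51%. Ttr, Kcnj13, Aqp1 and Kcne2, which define that epithelium, were at 0, and the list summed to 141 CPM beside 20.9 in tanycyte-like cells. Folr1, a folate receptor gene, held 74.7 of it beside 3.83, and Clic6 43.4 beside 1.15, with 35.8 in astrocyte-like cells. Folr1 was seen in 27.1% of chosen cells (21.7 to 33.1%) and in 4.05% after thinning, against 0.281% and 0.0703% of astrocyte-like cells. These shares were 1.34% and 0.474% of tanycyte-like cells, and 2.48% and 0.311% of Gfap-led cells that were not chosen. Acta2, the smooth muscle actin gene, stood at 254 CPM beside 6.31 in tanycyte-like cells, and Tagln, another smooth muscle gene, at 58.6 beside 4.59. Their mural list of 8 genes summed to 336 CPM beside 34.2, with Abcc9 at 0. Of its 3 genes compared with tanycyte-like cells, 2 were higher and 0 lower. Acta2 was seen in 91 chosen cells and Tagln in 38, 25 of them with both. The pericyte marker Rgs5 was seen in only 3 of the 247 cells, too few to compare with Acta2. The part of RNA from other cells in these values was not tested.

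Among the chosen cells, the 44 of the Gfap-led cluster differed from the 199 of the ependymocyte-like cluster. Ccdc153 stood at 408 CPM in the former and 2772 in the latter, Tmem212 at 1059 and 2686, Rarres2 at 2126 and 3906, Foxj1 at 99.8 and 354, and Hdc at 135 and 560. Cst3 stood at 20908 and 4012. Sntn had no UMI in the 44 cells, which allows up to 13.02 CPM, and stood at 366 CPM in the others. These 44 cells had 34 of 77 motile cilium genes at least 1 log2 unit lower and 0 higher, with a median of -0.90, where 401 of all 4144 genes compared were lower and the median was -0.09. They held 8.30 motile cilium UMIs per 1000, beside 15.5 in the ependymocyte-like cluster, 5.27 in cells of the Gfap-led cluster that were not chosen and 4.67 in tanycyte-like cells. For cilium genes they thus lay between the ependymocyte-like cluster and the cells of their own cluster that were not chosen. Within the Gfap-led cluster the rule itself parted chosen from other cells by Ccdc153 and Tmem212. A higher level of cilium genes in the chosen ones therefore tests nothing.

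**Figure D4:**
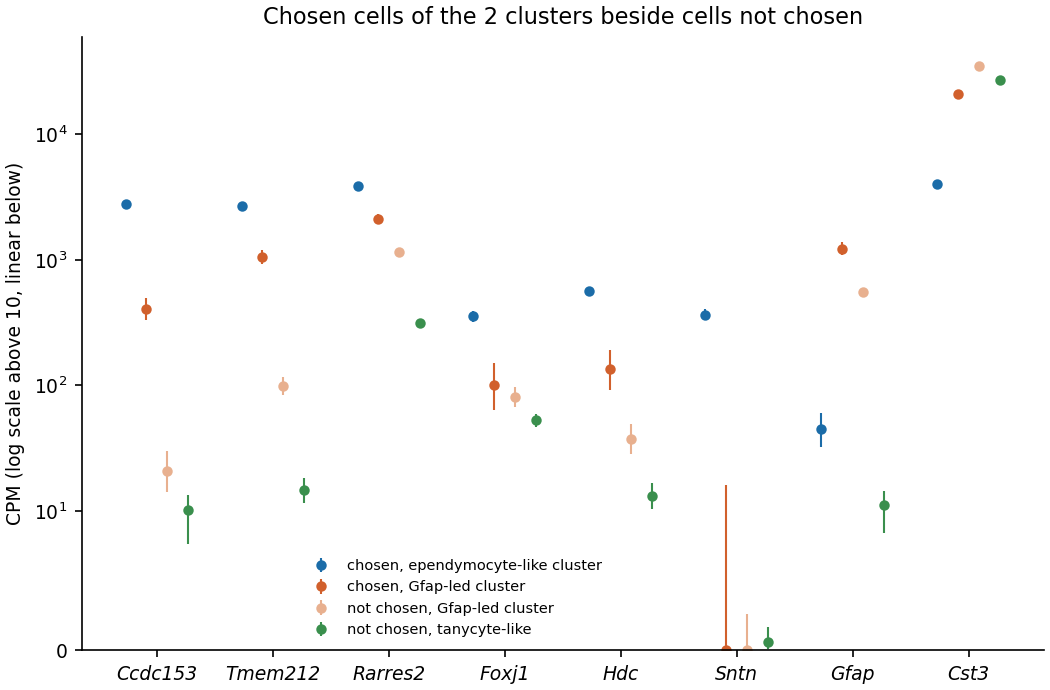
CPM with exact Poisson 95% intervals (y axis, log scale above 10 CPM and linear below) for chosen cells of the ependymocyte-like (blue) and Gfap-led (orange) clusters, and for cells of the Gfap-led (light orange) and tanycyte-like (green) clusters that were not chosen. Sntn is at 366 CPM in the blue group and at 0 in both Gfap-led groups, while Cst3 is lowest in the blue group, at 4012, and Gfap is at 44.7 there and at 1228 in the orange group.

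The 247 cells were then thinned to 2000 UMIs, to see which genes varied among them. Of 3520 genes with a mean of at least 0.1 UMIs, the median variance-to-mean ratio was 1.02, and 41 genes were above 2. The highest were Malat1 at 24.6, Cst3 at 21.1, Apoe at 10.1, 6330403K07Rik at 6.52 and Dbi at 5.99, followed by Ptn, Nnat, Gfap, Actb, Cpe, 1500015O10Rik, mt-Co1, mt-Co3, Gm21149 and mt-Atp6. Clustering the chosen cells alone gave 4 clusters of 40, 69, 92 and 46 cells. The cluster of 40 cells was led by 1500015O10Rik, Wls, Stmn2 and Cpe, that of 69 by Dusp1, Fos, Acta2 and Sncg, that of 92 by Speer4e, Gm21149, Kcnmb1 and Krt15, and that of 46 by Gfap, Ptn, Dclk1 and Cnih2. The last held 42 of the 44 cells of the Gfap-led cluster. All 4 clusters held cells of every barcode number, in 6, 4, 18 and 12 cells for the first of them and in 16, 19, 11 and 23 for the second. The cluster of 69 cells stood at 222 CPM of Fos, an immediate early gene, and 567 of Acta2, beside 46.8 and 134 in the rest.

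Over the 4 barcode numbers, ependymocytes made up 3.11% (2.32 to 4.06%), 3.08% (2.26 to 4.09%), 5.15% (4.04 to 6.46%) and 5.38% (4.29 to 6.65%) of the cells, or 51, 46, 70 and 80 cells. Numbers 1 and 2 held a smaller share than numbers 3 and 4, and the intervals of both overlapped that of number 3 but not that of number 4. Rarres2 was at 3097, 3568, 3841 and 3491 CPM, Foxj1 at 307, 287, 289 and 319, and Hdc at 427, 421, 529 and 474. The intervals of Foxj1 and of Hdc overlapped between all numbers, and Rarres2 was lowest under number 1, with an interval (2895 to 3308) below those of the other 3. Hspa1a, an inducible heat shock gene, was at 17.6, 13.9, 99.2 and 131 CPM, Hspa8 at 956, 791, 1359 and 1553, and Hsp90aa1 at 1788, 1907, 2555 and 2499. All 3 were higher under numbers 3 and 4 than under 1 and 2, with intervals that did not overlap. Fos was at 141, 143, 42.1 and 82.3 CPM, and Junb at 63.5, 102, 15.03 and 16.9, so that both were lower under numbers 3 and 4, although for Fos the interval of number 4 overlapped those of numbers 1 and 2. In tanycyte-like cells Hspa8 was at 1201, 1268, 1850 and 1830 CPM and Hsp90aa1 at 683, 613, 859 and 805, also higher under numbers 3 and 4, while Fos was at 107, 107, 63.1 and 121. Condition, library and handling cannot be told apart here, since no label says what the numbers stand for.

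**Figure D5:**
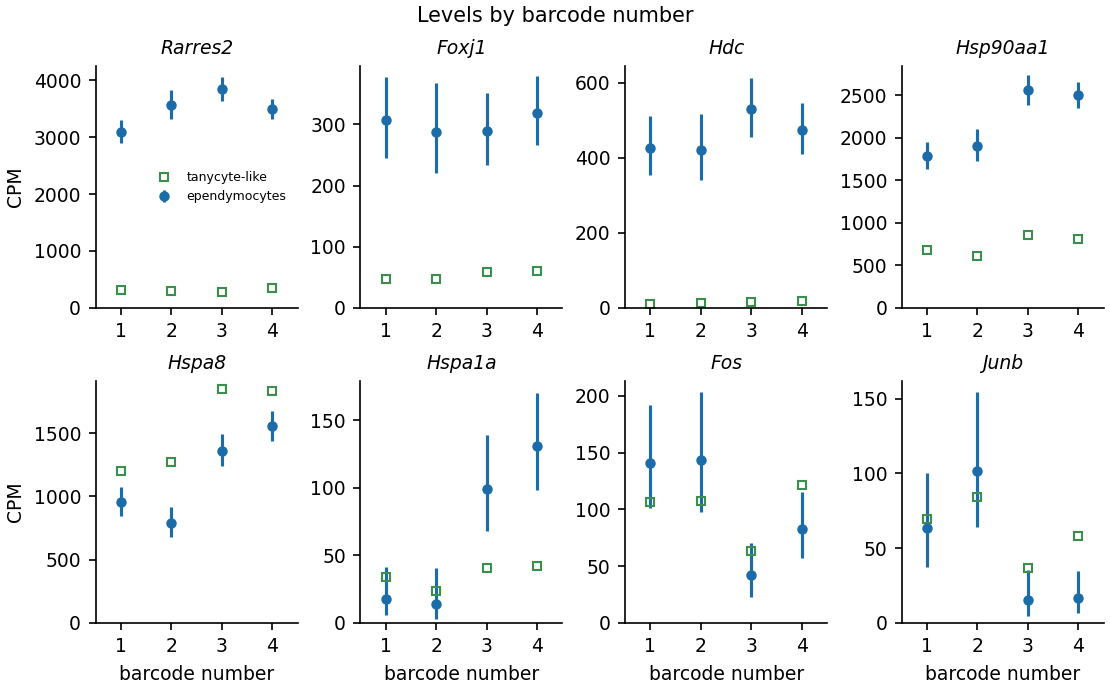
Each panel gives the CPM of 1 gene (y axis, starting at 0) under barcode numbers 1 to 4 (x axis), for ependymocytes (points with exact Poisson 95% intervals) and tanycyte-like cells (open squares). Rarres2, Foxj1 and Hdc stay far above the tanycyte-like level under every number, and Hspa1a goes from 13.9 CPM under number 2 to 131 under number 4.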

How the data were processed

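The authors dissociated the ME, made 10x 3′ libraries (version 2 chemistry), sequenced them on a HiSeq 4000, and deposited UMI counts per gene and cell from Cell Ranger 2.0 on mm10 (GRCm38). The deposited counts form 1 matrix of 27998 genes and 5982 cells from 32 sample records, and 0 columns were left unused. Cell calling and the annotation release are not given in the sources used here.

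The matrix was treated as 1 sample, so no test, SD or p-value is given. No cell was filtered; 50 cells (0.836%) were called doublets and kept, 1 of them chosen. Cells were clustered with scanpy 1.11.5 (2000 variable genes, 30 components, 15 neighbours, resolution 1). Genes with at least 50 UMIs over both groups were compared as log2 of (CPM + 10). Shares were recomputed on cells thinned to 1000 UMIs. The comparison was tried on simulated counts only for abundant genes with changes above 1 log2 unit. This does not cover smaller changes or genes near 50 UMIs. The cells and the gene lists were chosen with earlier results of these data known. Results for some genes are not reported here. The text names marker genes, up to 4 genes of highest CPM per list, those at the ends of each comparison, the most variable and the leading genes of each cluster.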

Additional observations from a re-analysis of the deposited data

Results flagged for a closer look

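With 21 values examined over the 4 barcode numbers, 3 had 1 number far from the other 3. The measure was Dixon's ratio, the gap from the farthest number to its nearest neighbour over the whole range. Its cut is passed by chance in about 1 in 20 sets of alike values. The cells came from 2 conditions with 2 libraries each, so the 4 numbers need not be alike. The ratio therefore only picked values to list, and no test is drawn from it. Avp, the vasopressin gene, was highest under number 4, at 184 CPM in ependymocytes beside 7.05, 18.5 and 15.03 under numbers 1 to 3. In tanycyte-like cells it was also highest there, at 121 beside 15.2, 17.6 and 34.7. Dbi was highest under number 2, at 26649 CPM beside 24501, 24779 and 24733. Gfap was lowest under number 1, at 123 CPM beside 324, 295 and 300, although 12 of the 51 chosen cells of that number lay in the Gfap-led cluster.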

How the results depend on the processing

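Of 174 alternative values for 17 results, 137 stayed within the interval of the value given, or within 1.5 times a count, and 37 did not. With the rule at 3 UMIs, Rarres2 was 3297 CPM, Hdc 427 and the motile cilium genes summed 13253. At 10 UMIs the share was 3.51%, Rarres2 3740, Foxj1 339, Hdc 534 and the motile sum 14864. With the ependymocyte-like cluster in place of the rule, these were 3.34%, 3899, 353, 560 and 15368, and with its chosen cells alone, added after seeing the data, 3.35%, 3906, 354, 560 and 15376. Leaving out each barcode number gave 3387 to 3630 CPM of Rarres2. Thinned cells gave Rarres2 3628, Foxj1 336 and Hdc 421, and 363 genes and 29 motile cilium genes above tanycyte-like cells, with fewer genes tested. A pseudocount of 1 gave 1691 genes higher and 3322 lower than in other cells, and 938 lower than in tanycyte-like cells. A pseudocount of 50 gave 449 and 327 against other cells, 315 and 90 against tanycyte-like cells, and 32 motile cilium genes higher. A minimum of 200 UMIs gave 392 genes and 38 motile cilium genes higher than in tanycyte-like cells, with fewer genes tested. In the 100 bases before the start, 26.6% of motile cilium promoters held the half-site and 0% the forkhead core, beside 5.46% and 1.28% of all promoters. No paired analysis was possible because no label ties a barcode number to a library or condition. The limits are the single pooled sample, a rule that read the cells' own UMIs, and 3′ counts that do not compare levels between genes.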

Other observations

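RNA of the arcuate neuropeptides Npy, Ghrh and Pomc was higher in ependymocytes than in the tanycyte-like, astrocyte-like and Gfap-led cells that were not chosen. Pars tuberalis cells and clusters without a name were not among the types examined. Npy stood at 293 CPM (264 to 325) in ependymocytes and between 68.7 and 106 in the other types examined that are not neurons. In neuron-like cells it stood at 3655. Npy was seen in 60.7% of ependymocytes and in 25.1% after thinning, beside 23.2% and 9.98% of astrocyte-like cells. These shares were 28.5% and 8.21% of tanycyte-like cells, and 31.1% and 6.83% of Gfap-led cells that were not chosen. Ghrh, the gene of growth hormone-releasing hormone, stood at 66.6 CPM beside 13.01 in tanycyte-like, 4.82 in astrocyte-like and 226 in neuron-like cells. In Gfap-led cells that were not chosen Ghrh stood at 25.7. Pomc stood at 53.0 (41.0 to 67.4) beside 22.8 in tanycyte-like, 13.5 in astrocyte-like and 20.2 in Gfap-led cells that were not chosen. Avp was at 69.8 beside 46.1 in tanycyte-like cells, and Sst, the somatostatin gene, at 27.3 beside 29.6. Agrp stood at 48.2 (36.8 to 62.0) beside 17.8 to 38.1 in the other types examined that are not neurons. The interval of Agrp overlapped that of the astrocyte-like cells, 32.2 to 44.7. The UMIs of Npy were 6.08 times those of Agrp in ependymocytes, 1.73 times in neuron-like cells and 1.93 to 4.75 times in the other types examined. Those of Ghrh were 1.38 times those of Agrp in ependymocytes and 0.0714 to 0.740 times in the other types examined, neuron-like cells included. Whether these UMIs come from the ependymocytes themselves was not tested.

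Sncg and Nppc, which led the same cluster of chosen cells, were seen in 102 and 66 of the 247 cells and together in 41. Hdc and Foxj1 were seen in 194 and 185 and together in 155. Nppc was chosen for mention after its values were seen.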
